A study of Homo sapiens with 8 samples.

Results

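The genes of the cytosolic ribosomal proteins were followed through a 24 h exposure of human neuroblastoma cells to interferon-γ (IFN-γ). They were taken from the deposited expression table by symbol, as RPS or RPL followed by a number with an optional letter A, X or L, together with RPSA and RPLP0, RPLP1 and RPLP2. The rule found 80 of the 26372 rows, 31 for the small subunit and 49 for the large subunit. The cells were BE(2)-M17, an established line derived from a human neuroblastoma and the only line in the groups compared. One group was untreated (4 libraries) and the other was treated with IFN-γ at 10 ng/ml for 24 h (4 libraries). Total RNA was depleted of ribosomal RNA and sequenced, and each gene has a value in FPKM, fragments scaled to the length of the transcript and to the mapped fragments of the library. Whether libraries of 1 group were grown as separate cultures is not in the labels, and the p-values therefore measure only library-to-library spread, which may be technical.

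The ribosome builds protein in a pair of subunits: the small subunit reads the messenger RNA, and the large subunit joins the amino acids and lets the new chain leave through its exit tunnel. Nearly every ribosomal protein is needed as a single copy per ribosome, and their messenger RNAs are among the most abundant of a growing cell. Most of these messenger RNAs begin with a C followed by an unbroken run of C and T (U in the RNA), the terminal oligopyrimidine or TOP start, through which the mTOR pathway and the RNA-binding protein LARP1 control their translation and stability. IFN-γ signals through its receptor and JAK kinases and, in myeloid cells, is known to release RPL13A from the large subunit into the GAIT complex, which holds back the translation of selected inflammatory messenger RNAs.

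The first 20 bases after the annotated RefSeq start (GRCh38.p14) are shown for 11 members that return in the results, with the run of the TOP start in capitals. The first 5 belong to genes that were lower with IFN-γ once 1 library was set aside, and the next 5 to genes that were not. The last is RPL4, which was also lower and has no such run from the first base of its annotated start.
RPL14: CTTCTCgcctaacgccgcca
RPL13A: CTTTTCCaagcggctgccga
RPL7A: CTTTCTCTCTCCTCCCgccg
RPS3: CCTTTCCTTTCagcggagcg
RPS6: CTCTTTTCCgtggcgcctcg
RPS24: CTCTTTTCCTCCTTggctgt
RPS16: CCTTTTCCggttgcggcgcc
RPL39: CCCTCCTCTTCCTTTCTCCg
RPLP2: CCTTTTCCTCCCTgtcgcca
RPS19: CCCTTTCCCCTggctggcag
RPL4: aagcacttccttttcctgtg
The starts lie as follows: RPL14 at chr3:40457339-40457358 on the plus strand; RPL13A at chr19:49487608-49487627 on the plus strand; RPL7A at chr9:133348218-133348237 on the plus strand. Those of the small subunit that were lower are RPS3 at chr11:75399518-75399537 on the plus strand and RPS6 at chr9:19380217-19380236 on the minus strand. The 5 that were not lower are RPS24 at chr10:78033863-78033882 on the plus strand, RPS16 at chr19:39435930-39435949 on the minus strand, RPL39 at chrX:119791611-119791630 on the minus strand, RPLP2 at chr11:809967-809986 on the plus strand and RPS19 at chr19:41860255-41860274 on the plus strand. The start of RPL4 is at chr15:66504836-66504855 on the minus strand. All are the first bases of annotated transcripts, that is, of a first exon. A TOP start was counted where the first base is C and at least 4 further bases, each C or T, follow without a break, read on the strand of the gene. By this count 46 of the 63 members in the RefSeq table (73.02%) had a TOP start at 1 or more annotated starts, against 5.14% of all 27305 genes in that table and 7.28% of the 9978 tested genes found in it. The runs were 5 to 19 bases long with a median of 8, and RPL39 had the longest. The other 17 members were not in the table.

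Every library of the treated group showed the response to IFN-γ: the response genes GBP1, IRF1, TAP1, CXCL9 and CXCL10 were each higher in all 4 treated libraries than in any untreated one. The 8 libraries held about 14000000 to 20400000 counted fragments, estimated from the steps between low FPKM values, and replicates correlated at r = 0.983 to 0.989 over 13598 genes. Of the neuroblastoma markers 11 of 12 passed the filter on low values, whereas of 13 markers of blood, endothelial, epithelial and glial cells only CD68, a lysosomal protein, did. Of the 11 neuroblastoma markers 3 (CHGA, CHGB and PHOX2A) were called higher with IFN-γ and 0 lower, beside 13.3% and 9.05% of all genes tested. Without IFN-γ library 4 the counts were 4 higher (GATA2 added) and 2 lower, MYCN (log2 change -0.18 ± 0.027 (SE), limma adjusted p = 0.00103) and STMN2 (log2 change -0.21 ± 0.033 (SE), limma adjusted p = 0.000994). In that fit 15.8% of all genes tested were called higher and 12.5% lower. IFN-γ library 4, also the deepest, stands apart from the other 3 in the genes described here, so the main comparisons are given with and without it.

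Ribosomal protein messages were abundant: the median member measured 1020.4 to 1377 FPKM across the 8 libraries, and the median of all genes tested 8.93 to 9.28 FPKM. The 10 highest members by mean FPKM over the 8 libraries included, in falling order, RPS27, RPL37A, RPL41, RPS18, RPL39, RPS2, RPLP1 and RPL38. RPS27, a zinc-binding protein of the small subunit, measured 3957, 4023, 4162 and 4246 FPKM in untreated libraries 1 to 4, 3982, 4140.2 and 4009 in IFN-γ libraries 1 to 3 and 4739 in IFN-γ library 4. RPL41, the smallest ribosomal protein, measured 2962, 3021, 2929.8 and 3107 FPKM untreated, 2823, 2901 and 2945 in IFN-γ libraries 1 to 3 and 3769.8 in IFN-γ library 4. Both were highest in IFN-γ library 4, and the other 7 libraries lay close together. At the lower end of the core members, RPL27A measured 72.8, 76.1, 76 and 75.5 FPKM untreated, 73, 76 and 74.5 in IFN-γ libraries 1 to 3 and 89.1 in IFN-γ library 4. Mean levels over all libraries ran from 76.6 FPKM in RPL27A to 4157 FPKM in RPS27, apart from RPL21 and the paralogs RPL39L, RPL3L and RPL10L, which lay below RPL27A.

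The tissue-restricted paralogs were low or absent. RPL10L, a retrogene paralog of RPL10 known from testis, was listed at 0 in all 8 libraries. RPL3L, the paralog of RPL3 typical of striated muscle, was listed at 0 except for 0.0736 FPKM in untreated library 2 and 0.0347 FPKM in IFN-γ library 4. Both fell below the filter (a mean of at least 0.5 FPKM), which left 78 members tested, all 31 of the small and 47 of the large subunit. RPL39L, the third paralog, measured 27.8, 24, 26.3 and 24.7 FPKM untreated, 26, 26.3 and 25.3 in IFN-γ libraries 1 to 3 and 39.8 in IFN-γ library 4, and it shares 148 of 156 bases of coding sequence, stop codon included, with RPL39 (94.87%). RPL39 itself, a short protein of the exit tunnel, measured 2190.3, 2261, 2220.2 and 2401 FPKM untreated, 2318, 2285 and 2379 in IFN-γ libraries 1 to 3 and 3317 in IFN-γ library 4, so that its copy was read at a small share of its level. Reads from such near-identical copies can be divided between rows, and the values of RPL39L are uncertain for that reason.

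RPL21 had the lowest value of the tested members: 0.909, 2.61, 2.04 and 2.22 FPKM untreated, 2.42, 0.856 and 1.28 in IFN-γ libraries 1 to 3 and 3.32 in IFN-γ library 4. The values of both groups overlapped fully. The lowest library rests on about 5.76 fragments, a counting error of 41.7%. Fragments were estimated over the coding length, whereas FPKM is scaled to the transcript. Where the transcript is longer, the number of fragments is understated and the counting error overstated. A processed pseudogene row, RPL21P28, was read at a mean of 22.1 FPKM, above RPL21, and its sequence matches 480 of the 483 coding bases of RPL21, stop codon included (99.38%). The level of RPL21 is therefore uncertain, and it is left out of the plots of changes. Next in order of the fragment estimate were RPL39L and RPL27A. Their lowest libraries rest on about 56.4 and 473 fragments, with counting errors of 13.3% and 4.6%. The coding length of RPL39L is 153 bases and its longest annotated transcript 756 bases. For RPS2, one of the deepest, the counting error is 0.588%.

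Small-subunit and large-subunit messages stood in a similar order across the libraries. Summed over the 31 small-subunit members, the untreated libraries reached 38084, 38309, 39006 and 39699.6 FPKM, IFN-γ libraries 1 to 3 reached 37207, 37895 and 38524, and IFN-γ library 4 reached 50644. Summed over the 47 tested large-subunit members, the untreated libraries reached 46443, 46729, 47057 and 48622 FPKM, IFN-γ libraries 1 to 3 reached 44527.5, 45678 and 45860.2, and IFN-γ library 4 reached 60095. In the large subunit, IFN-γ libraries 1 to 3 all lay below the 4 untreated libraries, whereas in the small subunit IFN-γ library 3 lay within the untreated range. IFN-γ library 4 lay above all others in both. In bulk RNA, fewer cells of a type and less RNA per cell cannot be told apart, here and in the results that follow.

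**Figure D1:**
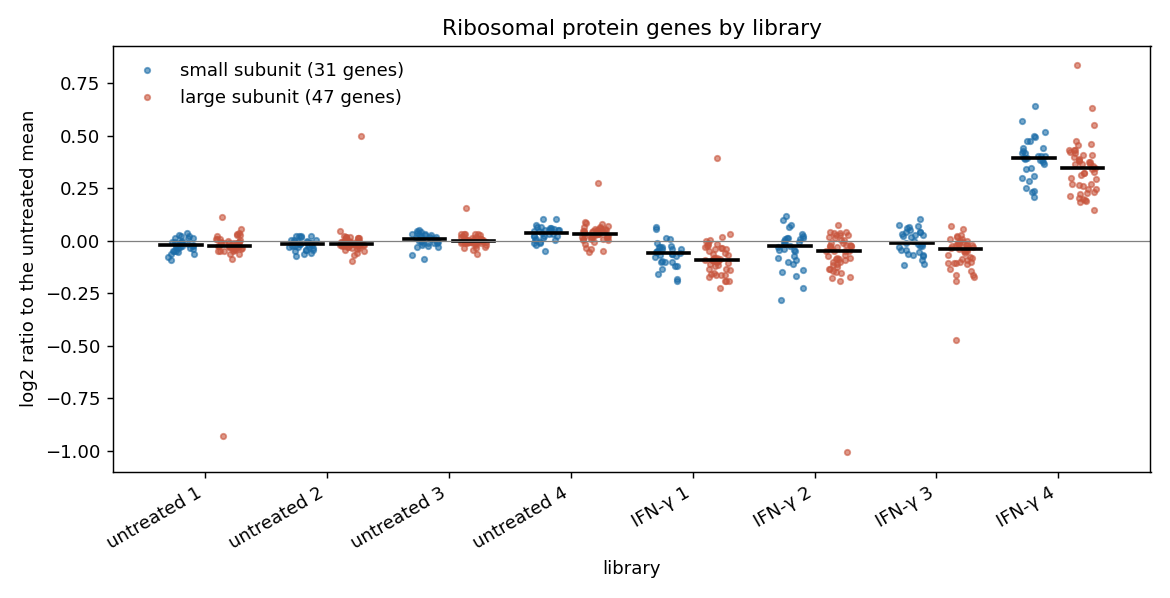
Log2 ratio of each tested member to its mean over the 4 untreated libraries (FPKM + 0.1), by library, for 31 small-subunit (blue) and 47 large-subunit (red) genes, with a black line at each median. The medians of IFN-γ library 4 lie at 0.39 and 0.35, and those of IFN-γ libraries 1 to 3 lie between -0.09 and -0.01; RPL21 supplies the points farthest from the rest.

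Taken gene by gene as log2 ratios to the untreated mean, the small-subunit median was -0.06, -0.02 and -0.01 in IFN-γ libraries 1 to 3 and 0.39 in IFN-γ library 4. The large-subunit median was -0.09, -0.05 and -0.04 in IFN-γ libraries 1 to 3 and 0.35 in IFN-γ library 4. The small-subunit median exceeded the large-subunit one by 0.031, 0.023, 0.026 and 0.045 in IFN-γ libraries 1 to 4. In the untreated libraries, whose own mean is the reference, the same gap was 0.0005 to 0.009. The gap thus had the same sign in all 4 treated libraries and exceeded the untreated range. The reference holds the untreated gaps near 0, and the 4 treated gaps share it, so they are not independent of each other. The gap is a description of these libraries and was not tested, because no p is given for a value taken over the members.

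With all 8 libraries, no ribosomal protein gene was called changed. At a limma adjusted p (Benjamini-Hochberg over 13598 genes) under 0.05, 0 of 78 members were higher and 0 were lower, and 0 members had an unadjusted p under 0.05 in either direction. Of all genes tested, 13.3% were called higher and 9.05% lower. Of the 78 changes 60 were above 0, and of the 13598 changes over all genes tested 6661. The median log2 change was 0.08 for the small subunit and 0.04 for the large subunit, against -0.005 over all genes tested. The direction of these medians depended on the scaling: after quantile normalization they were -0.0004 and -0.03, with all genes at -0.07, and as TPM (values rescaled to one sum in every library) without short RNA genes -0.01 and -0.05, with all genes at -0.10. Quantile normalization called 7 members higher and 10 lower. A plain conversion to TPM placed the median of all genes at 0.79 and called 77 members higher.

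The highest changes with all 8 libraries belonged to RPL39L, RPL39 and RPS24, and the lowest to RPL4. RPS24, a small-subunit protein mutated in some families with Diamond-Blackfan anaemia, measured 1527, 1528, 1555 and 1623 FPKM untreated, 1631, 1666 and 1639.5 in IFN-γ libraries 1 to 3 and 2080.3 in IFN-γ library 4. Every treated library lay above every untreated one. The change gave a log2 change of 0.16 ± 0.097 (SE) and a limma adjusted p of 0.266. RPS16, whose tail reaches the transfer RNA sites, measured 1097, 1128, 1137 and 1132 FPKM untreated, 1169, 1175 and 1144 in IFN-γ libraries 1 to 3 and 1528 in IFN-γ library 4, again without overlap, with a log2 change of 0.15 ± 0.098 (SE) and a limma adjusted p of 0.322. These were the only 2 members whose groups did not overlap, both upward, against 15.4% of all genes tested upward and 12.9% downward. RPL4, which lines the exit tunnel, measured 1127, 1121, 1128 and 1159 FPKM untreated, 994, 1007 and 1015 in IFN-γ libraries 1 to 3 and 1255 in IFN-γ library 4, with a log2 change of -0.09 ± 0.085 (SE) and a limma adjusted p of 0.483. Of its treated libraries 3 lay below the untreated range and 1 above it.

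IFN-γ library 4 was the highest library for every ribosomal protein message tested. All 78 tested members had their highest value of the 8 libraries there, against 27.2% of all genes tested. The ratio of library 4 to the mean of IFN-γ libraries 1 to 3 had a median of 1.33 over the members (1.35 in the small and 1.32 in the large subunit) and of 1.00 over all genes. It was largest for RPL21 (2.29-fold), RPS29 (1.73-fold), RPL39L (1.54-fold) and RPS21 (1.48-fold), and smallest for RPS27 (1.17-fold). RPS29, a short zinc-binding protein of the small subunit, measured 1439, 1394, 1339 and 1529.8 FPKM untreated, 1334, 1170.2 and 1361 in IFN-γ libraries 1 to 3 and 2219 in IFN-γ library 4. RPS27, at the other end, was nearer to its other treated libraries, with the values given above.

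Shorter genes in general were higher in this library. Over 11781 coding genes tested, the difference of library 4 from libraries 1 to 3 on the log2 scale had a Spearman correlation of -0.49 with coding length (Pearson -0.41), a description across genes that share their libraries and are not independent replicates. Among coding genes of up to 300 bases the median difference was 0.31, and among those of 750 to 1300 bases it was 0.08. Members exceeded these in each band: 0.47 for the 10 members of up to 300 bases and 0.36 for the 11 of 750 to 1300 bases, with 0.40, 0.43 and 0.45 in the bands between, where all coding genes had 0.29, 0.21 and 0.15. The mitochondrial ribosomal proteins, encoded in the nucleus for a separate ribosome, had a median ratio of 1.22 over 77 genes. With the trend of level with transcript length (longest annotated transcript) removed from all 8 libraries, the median changes with IFN-γ were 0.04 (small) and 0.008 (large). Without that step they were 0.08 and 0.04. All genes were at -0.004 with that step and at -0.005 without it. The part of depth in these changes was not tested.

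Without IFN-γ library 4, a share of the family was modestly lower after IFN-γ. Of the 78 members, 19 (24.36%) were called lower and 0 higher at an adjusted p under 0.05. Of the 13609 genes tested, 12.5% were called lower and 15.8% higher at the same threshold (28.3% in either direction). In the same limma fit 30 members lower and 1 higher had an unadjusted p under 0.05, a threshold at which all genes were not counted. The called genes were 5 of 31 in the small subunit (RPS3, RPS3A, RPS4X, RPS6 and RPS7) and 14 of 47 in the large subunit (RPL3, RPL4, RPL5, RPL6, RPL7, RPL7A, RPL9, RPL10, RPL13A, RPL14, RPL15, RPL23, RPL26 and RPLP0). The smallest of these was RPLP0, which fell by 4.83%, and the largest was RPL23, which fell by 11.82%. The median log2 change was -0.03 in the small subunit, -0.06 in the large subunit and -0.004 over all genes. Of the 78 changes 65 (83.33%) were below 0, against 50.89% over all genes tested. This comparison was made because library 4 stood apart in the same genes, and it uses 3 treated libraries against 4 untreated. Library 4 was the highest library for all 78 members, so leaving it out lowers the change of each. The direction of that shift was fixed by the choice, and the calls are not independent of it. The further fits without library 4 share this choice.

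**Figure D2:**
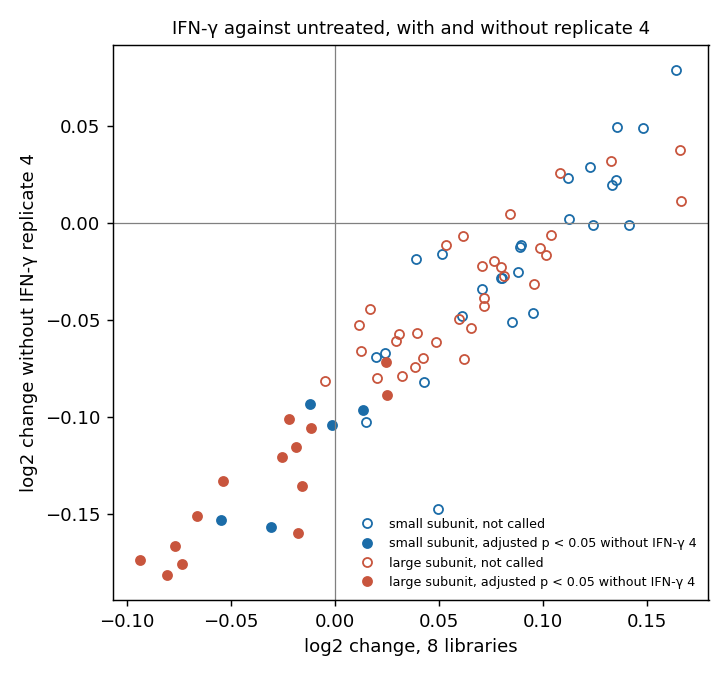
Log2 change of each tested member except RPL21 with all 8 libraries (horizontal) and without IFN-γ library 4 (vertical), for small-subunit (blue) and large-subunit (red) genes; filled points have an adjusted p under 0.05 without library 4. The 19 filled points all lie below 0 on the vertical axis, and no member was called with all 8 libraries.

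The median of both subunits stayed below 0 without library 4 under each of the 4 further scalings run (small -0.009 to -0.07, large -0.04 to -0.10), but its place relative to all genes did not. After quantile normalization the median of all genes was -0.07, below both subunits, and 9 members were called higher beside 19 lower. After removal of a trend with transcript length 2 members (RPS16 and RPS24) were called higher beside 20 lower. As TPM without short RNA genes, 45 were called lower, and the median of all genes moved from -0.004 to -0.04. The share of all genes called was not counted under these scalings, so the counts have no background beside them. Of the 19 genes, 10 were called lower under all 4 scalings: RPL4, RPL5, RPL6, RPL9, RPL10, RPL14, RPL15, RPL23, RPS3 and RPS7. Leaving out IFN-γ library 1 as well, which had the lowest sums, left 11 members called lower. Under each of the 7 such fits that left out a further library, RPL3, RPL4, RPL5, RPL6, RPL7A, RPL13A, RPL14, RPL15, RPL23, RPS3 and RPS7 were called lower.

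Of the 6 members that line the exit tunnel 2 were called lower without library 4 (RPL4 and RPL26), beside 14 of 47 in the whole large subunit. That is 33.33% of the list, near the 29.79% of the large subunit, and 12.5% of all genes tested were called lower. RPL4 averaged 1134 ± 17.2 FPKM (SD, n = 4) untreated and 1005 ± 10.4 FPKM (SD, n = 3) with IFN-γ (log2 change -0.17 ± 0.022 (SE), limma adjusted p = 0.000309). Its adjusted p was 1.58e-05 to 0.00291 over the 11 other fits without library 4. RPL3, which reaches the peptidyl transferase centre, measured 919.6, 925, 929.9 and 968 FPKM untreated, 835, 853 and 872 in IFN-γ libraries 1 to 3 and 1063 in IFN-γ library 4 (log2 change -0.13 ± 0.026 (SE), limma adjusted p = 0.00474), and after quantile normalization its adjusted p was 0.988. RPL26, at the mouth of the exit tunnel, measured 736, 759, 764 and 791 FPKM untreated, 695, 725 and 691 in IFN-γ libraries 1 to 3 and 919 in IFN-γ library 4 (log2 change -0.12 ± 0.030 (SE), limma adjusted p = 0.0172). RPL26 was called in 8 of the 11 other fits. In all 3 genes IFN-γ libraries 1 to 3 lay below every untreated library and library 4 above. RPL39, the small exit-tunnel protein, was not called (log2 change 0.04 ± 0.035 (SE), limma adjusted p = 0.475).

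Of the pair of proteins of the 5S particle, RPL5 was called and RPL11 was not. RPL5, which with RPL11 and 5S ribosomal RNA forms the particle that binds MDM2 and stabilises p53 when assembly stalls, measured 844, 852, 861 and 896 FPKM untreated, 755, 786 and 766 in IFN-γ libraries 1 to 3 and 986 in IFN-γ library 4. It was lower (log2 change -0.17 ± 0.027 (SE), limma adjusted p = 0.0015), with adjusted p values of 0.000125 to 0.0485 in the other fits. RPL11 measured 783, 758, 765 and 772 FPKM untreated, 721, 772 and 734 in IFN-γ libraries 1 to 3 and 885 in IFN-γ library 4 and overlapped between the groups (log2 change -0.05 ± 0.027 (SE), limma adjusted p = 0.195). RPL23, which touches the small subunit across the interface, measured 1473, 1506, 1535 and 1636 FPKM untreated, 1313, 1381 and 1371 in IFN-γ libraries 1 to 3 and 1792 in IFN-γ library 4, the largest decline of those called (log2 change -0.18 ± 0.038 (SE), limma adjusted p = 0.00609). RPL10, which is added late in assembly and sits near the transfer RNA sites, measured 315, 318, 319 and 331 FPKM untreated, 298, 298 and 311 in IFN-γ libraries 1 to 3 and 414 in IFN-γ library 4 (log2 change -0.09 ± 0.025 (SE), limma adjusted p = 0.0288). Leaving out IFN-γ library 1 as well, the adjusted p of RPL10 was 0.101, and 6 of its 11 other fits called it.

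RPL13A, the member known from the GAIT complex, measured 1106, 1061, 1085 and 1109 FPKM in untreated libraries 1 to 4, 967, 966 and 995 in IFN-γ libraries 1 to 3 and 1447 in IFN-γ library 4. It was lower in IFN-γ libraries 1 to 3 than in any untreated library and about 1.48 times as high in library 4 as in those 3. With all libraries its log2 change of -0.02 ± 0.126 (SE) and a limma adjusted p of 0.939 showed no call, and without library 4 it was called (log2 change -0.16 ± 0.025 (SE), limma adjusted p = 0.00106). Its adjusted p in the 11 other fits ran from 7.93e-05 to 0.0676, the highest after quantile normalization. Of the other tested GAIT components and kinases, EPRS (the glutamyl-prolyl tRNA synthetase of the complex) was called lower without library 4 (log2 change -0.10 ± 0.021 (SE), limma adjusted p = 0.00639), and the other 4 of the 6 genes tested were not. With all libraries 0 of the 6 were called. Of all genes tested, 22.3% were called in either direction with all libraries and 28.3% without library 4.

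**Figure D3:**
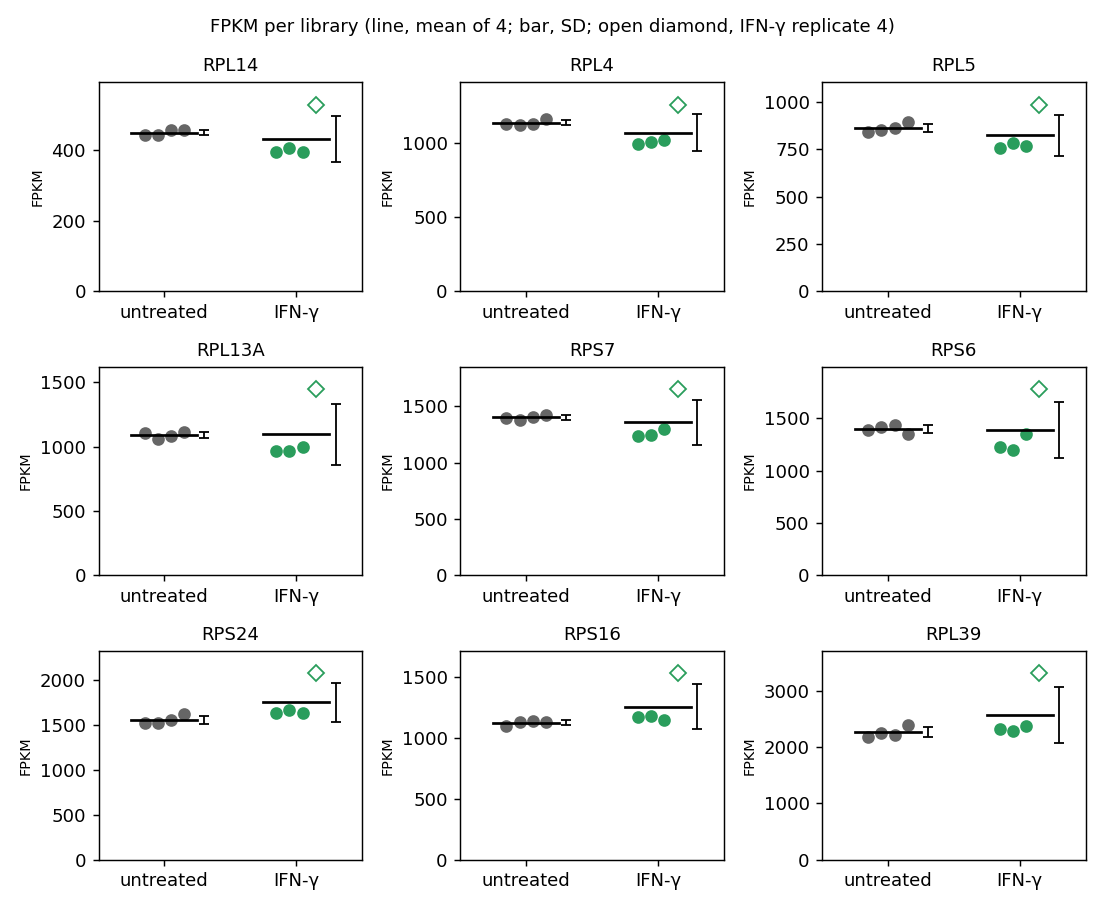
FPKM of 9 members in each of the 8 libraries: untreated (grey), IFN-γ (green; open diamond, library 4), with the mean of 4 as a line and its SD as a bar on axes from 0. In the upper 6 genes IFN-γ libraries 1 to 3 lie below the untreated libraries, in RPS24 and RPS16 above them and in RPL39 among them, and library 4 is the highest in all 9.

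Further large-subunit members declined to a like extent. RPL14 averaged 449.7 ± 8.44 FPKM (SD, n = 4) untreated and 398 ± 6.36 FPKM (SD, n = 3) with IFN-γ (log2 change -0.18 ± 0.023 (SE), limma adjusted p = 0.000349), with adjusted p values of 3.88e-05 to 0.00271 in the other fits. RPL15 measured 246, 243, 251 and 250.1 FPKM untreated, 222, 217 and 230.2 in IFN-γ libraries 1 to 3 and 282 in IFN-γ library 4 (log2 change -0.15 ± 0.026 (SE), limma adjusted p = 0.00192). RPL6 fell by 8.01%, RPL7 fell by 6.76%, RPL7A fell by 7.05% and RPL9 fell by 8.96%, with limma adjusted p values of 0.00747, 0.0233, 0.00823 and 0.0146. Of the 11 other fits, 11 called RPL6, 7 called RPL7, 10 called RPL7A and 9 called RPL9, and after quantile normalization the adjusted p of RPL7 was 0.539 and that of RPL7A 0.231. In each of these 6 genes the 3 treated libraries lay below the 4 untreated ones. Among the stalk proteins, which recruit the elongation factors, RPLP0 was called (1213, 1194, 1211 and 1208 FPKM untreated, 1135, 1152 and 1157 in IFN-γ libraries 1 to 3 and 1499 in IFN-γ library 4; log2 change -0.07 ± 0.021 (SE), limma adjusted p = 0.0287), and 5 of its 11 other fits called it, with an adjusted p of up to 0.103. RPLP1, RPLP2 and RPL12, at the base of the stalk, were not, with log2 changes of -0.01, 0.03 and -0.08.

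In the small subunit the 5 called genes included RPS6, the protein phosphorylated by the S6 kinases downstream of mTOR. RPS6 measured 1388, 1420.2, 1436 and 1352 FPKM untreated, 1224, 1197 and 1347 in IFN-γ libraries 1 to 3 and 1779.7 in IFN-γ library 4 (log2 change -0.16 ± 0.042 (SE), limma adjusted p = 0.0207). IFN-γ library 3 lay just below the lowest untreated library, and leaving out IFN-γ library 2 as well gave an adjusted p of 0.081. Only 6 of the 11 other fits without library 4 called RPS6. RPS7, another MDM2-binding member, measured 1395, 1374, 1408 and 1424 FPKM untreated, 1232, 1247 and 1299 in IFN-γ libraries 1 to 3 and 1652 in IFN-γ library 4 (log2 change -0.15 ± 0.026 (SE), limma adjusted p = 0.00204), with 9.38e-05 to 0.0135 in the other fits. RPS3, at the entry of the messenger RNA channel, measured 459, 463, 459 and 470.4 FPKM untreated, 421, 428 and 443 in IFN-γ libraries 1 to 3 and 572 in IFN-γ library 4 (log2 change -0.10 ± 0.023 (SE), limma adjusted p = 0.00854), with 0.000443 to 0.0393 in the other fits. RPS3A measured 1329.7, 1411, 1420.1 and 1390.2 FPKM untreated, 1278, 1312 and 1304 in IFN-γ libraries 1 to 3 and 1759 in IFN-γ library 4 (log2 change -0.10 ± 0.028 (SE), limma adjusted p = 0.0313), and RPS4X, encoded on the X chromosome, 779, 780.1, 814 and 824 FPKM untreated, 734, 776 and 737 in IFN-γ libraries 1 to 3 and 938 in IFN-γ library 4 (log2 change -0.09 ± 0.031 (SE), limma adjusted p = 0.0488). Both are weak calls: of the 11 other fits 4 called RPS3A, with an adjusted p of up to 0.26, and 5 called RPS4X.

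Several members known beyond core translation were not called without library 4. RPS19, the gene most often mutated in Diamond-Blackfan anaemia, measured 482, 495, 486 and 485 FPKM untreated, 474, 498 and 509 in IFN-γ libraries 1 to 3 and 676 in IFN-γ library 4 (log2 change 0.02 ± 0.027 (SE), limma adjusted p = 0.638). RPS27A, made as a fusion with ubiquitin, measured 807, 811, 853 and 869.8 FPKM untreated, 840.2, 907 and 847 in IFN-γ libraries 1 to 3 and 1096 in IFN-γ library 4 (log2 change 0.05 ± 0.037 (SE), limma adjusted p = 0.362). RPSA, also described as a laminin receptor, measured 549, 541, 529 and 541 FPKM untreated, 529, 523 and 531 in IFN-γ libraries 1 to 3 and 704 in IFN-γ library 4 (log2 change -0.03 ± 0.021 (SE), limma adjusted p = 0.267). In these 3 genes treated and untreated libraries overlapped. Over 10 members linked to Diamond-Blackfan anaemia, 3 were called lower (RPL5, RPL26 and RPS7), 0 higher, and the median log2 change was -0.05. That is 30% of the list, beside 24.36% of all tested members and 12.5% of all genes tested.

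RPS24 and RPS16 were not called when library 4 was left out. RPS24 averaged 1558 ± 45 FPKM (SD, n = 4) untreated and 1646 ± 18.3 FPKM (SD, n = 3) with IFN-γ (log2 change 0.08 ± 0.028 (SE), limma adjusted p = 0.0628), with adjusted p values of 0.0158 to 0.832 in the other fits, of which 2 of 11 called it. RPS16 was likewise not called (log2 change 0.05 ± 0.023 (SE), limma adjusted p = 0.146). They were again the 2 members whose treated libraries all lay above the untreated ones, against 19.2% of all genes tested. The reverse order, all treated libraries below all untreated ones, held for 24 members (8 small, 16 large) and for 17.2% of all genes tested. Of these 24, 5 were not called, among them RPS20, RPS23, RPL8 and RPL36A. RPS20 missed the threshold narrowly (log2 change -0.08 ± 0.027 (SE), limma adjusted p = 0.0524).

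The called genes were mostly those with longer coding sequences. The 19 had coding sequences of 420 to 1281 bases with a median of 744, and the 59 not called 75 to 885 bases with a median of 411. At a division of 600 bases, chosen after the values were seen, 15 of the 22 members above it were called lower and 4 of the 56 members up to it. The same division gave 4 of 8 against 1 of 23 in the small subunit and 11 of 14 against 3 of 33 in the large subunit. Over all coding genes tested of up to 1300 bases the shares were 12.02% above and 12.11% up to 600 bases. The mitochondrial ribosomal proteins gave 0 of 35 above and 2 of 41 up to it.

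**Figure D4:**
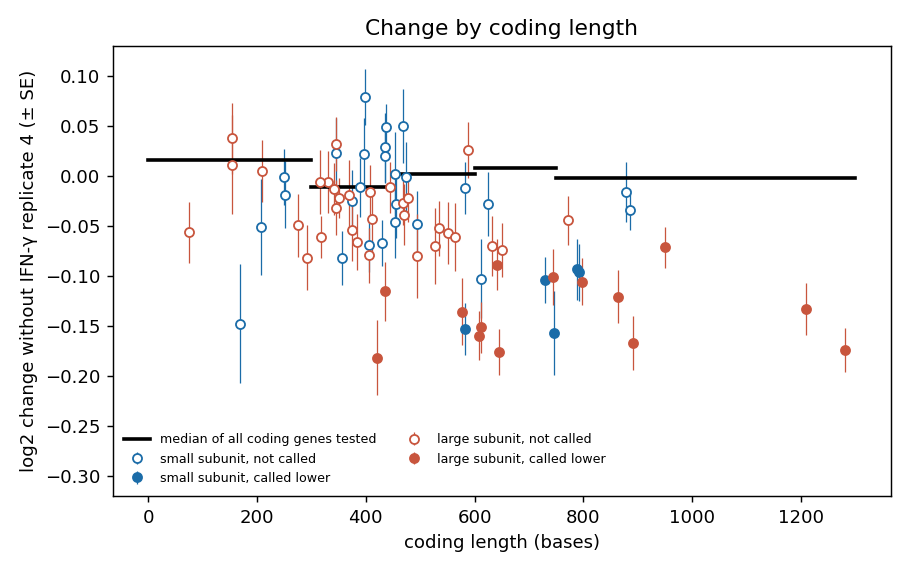
Log2 change without IFN-γ library 4 (± SE) against coding length in bases for the tested members except RPL21, with filled points called lower; black lines mark the median of all coding genes tested in each of 5 length bands. Beyond 600 bases most filled points lie between -0.07 and -0.18, and the black lines stay between -0.02 and 0.02.

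Across the 78 members, the log2 change had a Spearman correlation of -0.49 and a Pearson correlation of -0.36 with log2 coding length (-0.63 and -0.46 over 47 large-subunit genes, -0.30 and -0.17 over 31 small-subunit genes). Over 11781 coding genes the values were -0.02 and -0.02. These describe genes read from the same libraries. The count above 600 bases was 15 of 22 also after removal of the transcript-length trend and after median-of-ratios scaling. It was 20 of 22 as TPM without short RNA genes. That scaling also called 25 of 56 shorter members lower, against 4 of 56 without it. The count above 600 bases was 8 of 22 after quantile normalization, which called 11 of 56 shorter members lower and 9 higher. The transcript-length trend used the longest annotated transcript, which can lie far above the coding length (RPL14 7072 against 645 bases, RPS29 7062 against 168). That setting therefore does not correct for coding length. Exceptions among the longer members included RPS2, RPSA and RPL8, with log2 changes of -0.02, -0.03 and -0.04. The shorter members called were RPL23, RPL26, RPL9 and RPS7. Mean level and change had a Spearman correlation of 0.19 and a Pearson correlation of 0.35 over the 78 members, the latter 0.12 without RPL21 and RPL39L.

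TOP starts, such as those printed above, were found among both called and not called members. A TOP start was present in 9 of the 16 called genes that RefSeq lists here (56.25%), and in 37 of the 46 tested genes listed that were not called (80.43%). This difference was not tested. Among the 46 with a TOP start, the length of the run had a Spearman correlation of 0.17 with the log2 change. RPL7A, with a run of 16 bases, fell by 7.05%, while RPL39, with a run of 19 bases, was not called. RPL14 and RPS16 have runs of 6 and 8 bases and lie at opposite ends of the order. RPL4, RPL6, RPL9, RPL15, RPL3, RPS4X and RPS7 were called and have no TOP start at their annotated starts by this count. RefSeq starts are annotated ends and were not measured in these cells.

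Pseudogenes of the family, mostly retrotransposed copies scattered over the genome, took little of the signal. The table held 31 rows named as such, of which 20 passed the filter. Their summed level was 84.1 to 102.5 FPKM in the untreated libraries, 86.6 to 87.9 in IFN-γ libraries 1 to 3 and 73.3 in IFN-γ library 4, which therefore had the lowest sum of pseudogenes and the highest sum of the genes. With all libraries 0 pseudogene rows were called, against 22.3% of all genes tested in either direction. Without library 4, 1 was higher (RPL19P12) and 1 lower (RPL23AP7), beside 15.8% and 12.5% of all genes tested. RPL23AP7 went from 6.80, 7.97, 7.40 and 8.27 FPKM to 3.54, 6.10 and 5.15, with 7.31 in library 4.

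Copies and fusion genes outside the symbol rule behaved singly. Of 7 such genes, 1 was called with all libraries: RPL7L1, a nucleolar relative of RPL7, at 75.7, 71, 76 and 74.8 FPKM untreated, 69, 66.3 and 66.3 in IFN-γ libraries 1 to 3 and 62.7 in IFN-γ library 4 (log2 change -0.17 ± 0.041 (SE), limma adjusted p = 0.0136). RPL36AL, the intronless copy of RPL36A, was called higher without library 4 (log2 change 0.14 ± 0.047 (SE), limma adjusted p = 0.0478), while RPL36A itself was not called (log2 change -0.06 ± 0.021 (SE), limma adjusted p = 0.057). FAU, which encodes RPS30 fused to a ubiquitin-like protein, was not called in either comparison. The share of all genes tested called in either direction was 22.3% with all libraries and 28.3% without library 4.

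Translation factors and related genes known for TOP messages included genes called lower in both comparisons. Of 21 tested, 2 were lower and 0 higher with all libraries, EIF4B and EIF3L. Without library 4, 12 (57.14%) were lower and 0 higher. Of all genes tested, 9.05% were called lower with all libraries and 12.5% without library 4. EIF4B, a helper of the initiation helicase, measured 258, 272, 267 and 277 FPKM untreated, 219, 229.6 and 222 in IFN-γ libraries 1 to 3 and 231 in IFN-γ library 4 (8 libraries: log2 change -0.25 ± 0.041 (SE), limma adjusted p = 0.00144). EEF1A1, the elongation factor that delivers transfer RNA, measured 2364, 2421, 2402 and 2469.7 FPKM untreated, 2235, 2251 and 2279 in IFN-γ libraries 1 to 3 and 2832 in IFN-γ library 4 and was called without library 4 and not with it (log2 change -0.10 ± 0.025 (SE), limma adjusted p = 0.0177). The median log2 change of the 21 was -0.04 with all libraries and -0.10 without library 4, and the ratio of library 4 to the other treated libraries had a median of 1.18. Differences between this list and the members were not tested.

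Of all genes tested, 13.3% were called higher and 9.05% lower with all libraries, and 15.8% and 12.5% without library 4. Among 11 host genes of small nucleolar RNAs, which guide the modification of ribosomal RNA, 2 were lower with all libraries (SNHG7 and SNHG16). Without library 4, 7 of the 11 (63.64%) were lower, and 0 were higher in either comparison. GAS5 measured 305, 318, 303 and 339 FPKM untreated, 262, 256 and 261 in IFN-γ libraries 1 to 3 and 344 in IFN-γ library 4 and was lower without library 4 (log2 change -0.28 ± 0.037 (SE), limma adjusted p = 0.000387). Of 41 ribosome biogenesis factors, 2 were higher (NOP56 and BCCIP) and 5 lower with all libraries, with a median of 0.02. Without library 4, 3 were higher and 6 (14.63%) lower, the latter near the share of all genes tested. NOP56, a core protein of box C/D particles, went from 112.8, 108.2, 107.2 and 107.3 FPKM to 125.5, 124.0, 121.7 and 139.4. Of 77 mitochondrial ribosomal proteins 3 were higher and 0 lower with all libraries, and 3 higher and 2 lower without library 4, where their median log2 change was 0.03.

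Of 18 regulators of translation tested, 3 were called higher with all libraries (EIF2AK2, LARP4 and EIF4E) and 1 lower (EIF4EBP2, a repressor of EIF4E), beside 13.3% and 9.05% of all genes tested. Without library 4, 4 were higher and 2 lower, beside 15.8% and 12.5% of all genes tested. EIF2AK2, the interferon-induced kinase PKR, measured 29.7, 30.6, 30.8 and 30 FPKM untreated, 69.9, 68.7 and 64.6 in IFN-γ libraries 1 to 3 and 54.1 in IFN-γ library 4 (8 libraries: log2 change 1.08 ± 0.073 (SE), limma adjusted p = 2.1e-06). LARP1, which binds the TOP start, measured 106, 105, 106 and 101 FPKM untreated, 124, 122 and 125 in IFN-γ libraries 1 to 3 and 98.2 in IFN-γ library 4. IFN-γ library 4 had the lowest LARP1 value of the 8 libraries, and the other 3 treated libraries lay above all untreated ones. LARP1 was called higher without library 4 (log2 change 0.24 ± 0.024 (SE), limma adjusted p = 6.63e-05) and not with it (limma adjusted p = 0.158).

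**Figure D5:**
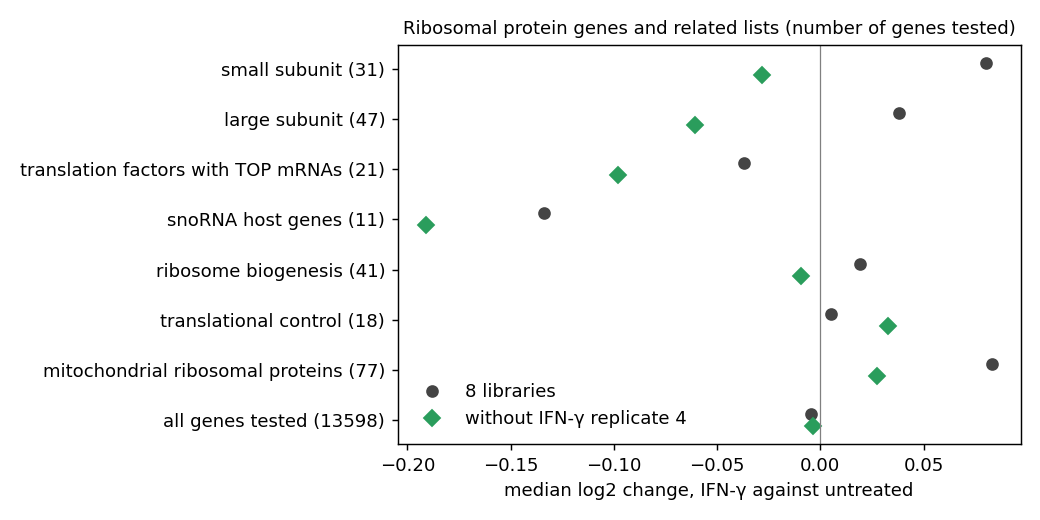
Median log2 change of IFN-γ against untreated for each gene list (number of genes tested in brackets), with all 8 libraries (circles) and without IFN-γ library 4 (diamonds). Without library 4 the medians lie at -0.03 and -0.06 for the ribosomal subunits, -0.10 for translation factors and -0.19 for small nucleolar RNA hosts; the ribosomal medians are above 0 with it.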

How the data were processed

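RNA of 8 BE(2)-M17 libraries was sequenced after ribosomal RNA depletion. Per the submitters' processing notes, TopHat2 and Cuffdiff were used with hg38; for versions and annotation the sources used here give nothing. The deposited values are FPKM per gene, made by the authors. The test used log2(FPKM + 0.1) for genes averaging 0.5 FPKM or more, so changes of low genes are understated, with limma 3.58.1 (mean-variance trend, R 4.3.3, two-sided), Benjamini-Hochberg adjustment across every tested gene and a 0.05 threshold; the fit was tested on simulated data. Members and lists were chosen with earlier results of these data known. Genes named are the 10 highest members (some genes are not reported here), a set of members with known roles, the called genes of each list, and genes singled out after their values were seen (RPS16, RPS20, RPS24, RPS29, RPL12, RPL21 and RPL27A among them, and the 19 called without IFN-γ library 4). Coding lengths, without the stop codon, are from GENCODE 29 and start sequences from RefSeq (GRCh38.p14); a 600-base division is a choice made after seeing values. Fragment numbers are estimates from FPKM steps, and those of single members also use the coding length. Alternatives covered pseudocount, filter, scaling, length trend, model and each library left out; the columns of the table not mapped to a sample numbered 0.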

Additional observations from a re-analysis of the deposited data

Results flagged for a closer look

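IFN-γ library 4 lay far above the other 3 treated libraries in 27 of 70 groups of 4 values checked. The measure was the gap to the nearest library as a share of the whole range (Dixon's ratio, above its 95% critical value). Chance exceeds that value in about 1 in 20 independent groups picked beforehand. These groups share their libraries, and many of the genes were named because they were called without library 4. The 27 of 70 can therefore not be set against that rate. All 27 were this library, and 0 were in the untreated group. The summed FPKM in library 4 was 50644 for the small subunit and 60095 for the large subunit. In the large subunit the FPKM values concerned were RPL10 414, RPL13A 1447, RPL14 529, RPL23 1792, RPL26 919, RPL3 1063, RPL37A 4708, RPL38 2579, RPL39 3317, RPL39L 39.8, RPL4 1255, RPL41 3770.0, RPL5 986, RPL6 1523, RPL7 1306, RPL7A 1677, RPL9 1762, RPLP0 1499, RPLP1 3049 and RPLP2 1047. In the small subunit they were RPS18 3627, RPS3 572, RPS3A 1759, RPS7 1652 and RPSA 704. Over all 78 tested members 49 met this criterion, against 4.58% of all genes tested. The part of the library in the results is given by the comparison without it.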

How the results depend on the processing

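Of 31 alternatives (20 planned, 11 added after the data were seen), pseudocount, filter, median-of-ratios scaling and limma settings left the counts of 0 called members with all libraries. Counts of members called higher were 7 after quantile normalization (4 small, 3 large) and 77 as TPM (31 small, 46 large). Counts called lower were 10 after quantile normalization (3 small, 7 large), 8 as TPM without short RNA genes (1 small, 7 large) and 1, in the large subunit, after removal of the length trend. Leaving out 1 library gave 0 to 19 called lower (0 to 5 small, 0 to 14 large), the 19 without IFN-γ library 4, and 0 called higher. As TPM the medians were 0.886 (small) and 0.844 (large), with all genes at 0.788. Without library 4, the counts called higher were 2 after removal of the length trend and 9 after quantile normalization. As TPM without short RNA genes 45 were called lower, with the median of all genes at -0.04. Leaving out a further library beside library 4 gave 0 to 1 higher and 11 to 20 lower. After quantile normalization, the log2 changes of 8 named genes had the opposite sign: RPL10 -0.097, RPL11 -0.025, RPL38 -0.05, RPLP0 -0.053, RPLP1 -0.0031, RPS2 -0.013, RPS3A -0.05 and RPSA -0.006. As TPM, where the median of all genes moved to 0.788 and sets this sign, the log2 changes of 16 named genes had the opposite sign: RPL13A 0.788, RPL14 0.732, RPL15 0.739, RPL23 0.725, RPL26 0.787, RPL3 0.752, RPL4 0.712, RPL5 0.729, RPL6 0.78, RPL7 0.784, RPL7A 0.794, RPL9 0.79, RPS3 0.804, RPS4X 0.794, RPS6 0.775 and RPS7 0.751. As TPM without short RNA genes, the log2 changes of 11 named genes had the opposite sign: RPL10 -0.067, RPL11 -0.081, RPL37A -0.032, RPL38 -0.0075, RPL41 -0.052, RPLP0 -0.067, RPS18 -0.012, RPS2 -0.041, RPS27 -0.053, RPS3A -0.078 and RPSA -0.021. After removal of the length trend, the log2 changes of 5 named genes had the opposite sign: RPL11 -0.048, RPL41 -0.00022, RPLP0 -0.03, RPS2 -0.0073 and RPS3A -0.045. Leaving out 1 library changed the sign for 20 named genes, with ranges of RPL10 -0.089 to 0.07, RPL11 -0.052 to 0.046, RPL13A -0.16 to 0.035, RPL26 -0.115 to 0.022, RPL37A -0.049 to 0.106, RPL41 -0.056 to 0.083, RPL6 -0.12 to 0.02, RPL7 -0.101 to 0.017, RPL7A -0.105 to 0.028, RPL9 -0.135 to 0.029, RPLP0 -0.071 to 0.062, RPLP1 -0.013 to 0.14, RPS18 -0.028 to 0.121, RPS2 -0.016 to 0.094, RPS27 -0.019 to 0.065, RPS3 -0.104 to 0.043, RPS3A -0.096 to 0.058, RPS4X -0.093 to 0.024, RPS6 -0.157 to 0.034 and RPSA -0.034 to 0.11. Replicate numbers correlated at -0.03 to 0.08 between same-numbered libraries and do not pair them; with the replicate number as a block 0 members were called in either direction. By the fragment estimates, depth limits RPL21 and RPL39L, and no count table was used here.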
